A study of Mus musculus with 2 samples.

Results

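DNA replication copies the genome once per cell cycle. Origins are licensed in G1 when CDC6 and CDT1 load the hexameric MCM2-7 helicase, which is activated at the start of S phase by CDC45 and the GINS complex. DNA polymerases, the PCNA clamp, nucleotide-synthesis enzymes and chromatin-copying factors then carry the fork forward. Many of the genes involved are transcribed in late G1 and S phase under E2F transcription factors, so their mRNAs are widely used as a readout of cells preparing for or passing through S phase. In injured muscle, satellite cells, the resident stem cells of this tissue, leave quiescence and divide as myoblasts before they withdraw from the cycle and differentiate.

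The 36 genes described here are DNA replication genes listed by symbol: the 6 MCM helicase subunits, origin licensing factors, helicase activators, polymerase and primase subunits, clamp and clamp loader subunits, Okazaki fragment and repair enzymes, nucleotide-supply enzymes, chromatin and histone factors, and degradation and fork protection factors. All 36 were found among the 32286 features of both libraries. The measured quantity was the UMI count (unique molecular identifiers, each counting 1 captured transcript), and a level in CPM is the count of a gene scaled to the total of the same barcodes. Genes differ in length and capture, so levels are compared between groups of barcodes and not between genes.

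The GFP+ (PAX3+) and GFP- (PAX3-) satellite cells were sorted from biceps and recto femoris muscles of Pax3GFP/+ animals 5 days after injury, and 1 10x 3′ single-cell library was made of each fraction from 20000 loaded cells. GFP reports the Pax3 locus on 1 allele in both fractions, which share the allele and the injury, although a further label calls the genotype wild-type. The sort therefore sets Pax3 itself, and Pax3 levels are no result here. With 1 library per fraction there is no replicate check and no statistical test: the 95% intervals below are exact and cover counting error only, and each difference is one between these libraries.

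A barcode was kept if it had 1000 or more UMIs, 500 or more genes and no more than 10% mitochondrial UMIs, which gave 604 in the GFP+ library, holding 11981352 UMIs, and 2683 in the GFP- library, holding 44264206 UMIs. Their median depth was 18535 UMIs in the GFP+ library and 14663 UMIs in the GFP- library, and 2 kept barcode sequences occurred in both libraries. The satellite cell label fitted most barcodes: 84.4% of GFP+ and 91.2% of GFP- barcodes had UMIs of at least 3 of the 8 myogenic marker genes. UMIs of at least 3 genes of a non-myogenic list (macrophage, mural, glial, endothelial or fibro-adipogenic) marked 96 GFP+ barcodes (15.9%) and 288 GFP- barcodes (10.7%). Of the summed lists the macrophage markers stood apart most, at 3232 CPM in the GFP+ library against 344 CPM in the GFP- library, with all 8 higher in the GFP+ library. Single mural markers differed by more, such as Rgs5 at 1.75 CPM in the GFP+ library and 275 CPM in the GFP- library.

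The replication genes as a group were lower in the GFP+ library. Their summed level was 1033 CPM in the GFP+ library (12377 UMIs) and 1251 CPM in the GFP- library (55357 UMIs), a GFP+ over GFP- ratio of 0.826 (interval 0.810 to 0.842). The ratio was below 1 for 35 of the 36 genes. Of the 33 genes with a mean of at least 5 CPM, 20 had an interval below 1, where 37.5% of all genes at that level did, and the median log2 ratio of the 33 was -0.28. Over all genes at that level the median log2 ratio was -0.10 and 63.8% of the ratios were below 1. In single genes, 1 of the 33 genes, Dtl, was at least 1.5-fold lower, against 4.09% of all genes, and 0 were at least 1.5-fold higher, against 7.57% of all genes. The count of lower genes depended on which barcodes were summed: it was 10 of 32 without the 5% of barcodes with the most UMIs in each library, where 5.04% of all genes were that much lower. At up to 5% mitochondrial UMIs it was 11 of 33, against 5.23% of all genes, and with every barcode thinned to 5000 UMIs it was 8 of 31, against 8.91%. The genes at a mean under 5 CPM were Cdc6, Mcm10 and Exo1. Leaving out the barcodes marked for a non-myogenic list gave 0.827 (0.810 to 0.844) for the sum, with 2 of 33 genes at least 1.5-fold lower, against 2.87% of all genes, and 0 higher, against 4.08%. The proliferation list of 20 mitotic genes, which shares no gene with these 36, was lower by more, at 684 CPM in the GFP+ library and 1115 CPM in the GFP- library (ratio 0.613, 0.599 to 0.627). Genes of the histone clusters, most of which are transcribed in S phase, were higher in the GFP+ library, at a summed 549 CPM in the GFP+ library and 354 CPM in the GFP- library (ratio 1.55, 1.51 to 1.60). How fully 3′ libraries capture histone transcripts was not tested, and neither was whether this ratio follows the part of cells in S phase. In sums of this kind, fewer replicating cells and less mRNA per replicating cell cannot be told apart.

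Among the MCM helicase subunits, which form the ring that unwinds the fork, all 6 ratios were below 1 and 2 of the intervals were. Mcm3 had 28.0 CPM in the GFP+ library and 36.4 CPM in the GFP- library (ratio 0.770, 0.682 to 0.866). Mcm6 had 45.3 CPM in the GFP+ library and 55.2 CPM in the GFP- library (0.821, 0.747 to 0.902). The other 4 were closer together, with Mcm7 at 44.2 CPM in the GFP+ library and 45.1 CPM in the GFP- library (0.980, 0.889 to 1.08), and Mcm2, Mcm4 and Mcm5 at ratios of 0.897, 0.893 and 0.944. The licensing factor Cdt1, which brings the helicase to origins, stood at 13.9 CPM in the GFP+ library and 15.4 CPM in the GFP- library, and its interval held 1 (0.902, 0.757 to 1.07). Cdc6, its partner, rested on 44 UMIs in the GFP+ library and 218 in the GFP- library (0.746, 0.527 to 1.03).

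The helicase activators and the polymerases were the role groups with the lowest summed ratios, 0.729 (0.656 to 0.808) and 0.722 (0.653 to 0.797). Cdc45, the subunit that joins MCM2-7 and GINS into the active helicase, had 10.9 CPM in the GFP+ library and 16.1 CPM in the GFP- library (0.679, 0.559 to 0.819). Mcm10, needed to start unwinding, had 28 UMIs in the GFP+ library and 188 in the GFP- library, at 2.34 and 4.25 CPM (0.550, 0.356 to 0.821). The GINS subunits differed from each other in their ratios, Gins2 at 0.734 (0.628 to 0.856) and Gins1 at 0.936 (0.719 to 1.2), and these intervals overlap. Pola1, the catalytic subunit of polymerase alpha, had 12.8 CPM in the GFP+ library against 18.3 CPM in the GFP- library (0.699, 0.584 to 0.831). Prim1, the catalytic primase subunit, had 13.9 CPM in the GFP+ library against 19.7 CPM in the GFP- library (0.703, 0.592 to 0.831). The leading-strand polymerase gene Pole gave 0.680 (0.494 to 0.920), and the interval of Pold1, the catalytic subunit of polymerase delta, held 1 (0.818, 0.658 to 1.01).

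Of the clamp loader genes in the list, Rfc2 had 33.6 CPM in the GFP+ library and 43.5 CPM in the GFP- library (0.771, 0.691 to 0.859), and Rfc4 had 26.6 CPM in the GFP+ library and 34.2 CPM in the GFP- library (0.778, 0.687 to 0.878). The Rfc genes outside the list, Rfc1, Rfc3 and Rfc5, had ratios between 0.789 for Rfc5 and 1.03 for Rfc3. Atad5, Dscc1 and Chtf18, grouped with these, were lower, at 0.751, 0.711 and 0.678, the last at a mean under 5 CPM. Pcna, the sliding clamp, had 94.1 CPM in the GFP+ library and 101 CPM in the GFP- library (0.93, 0.870 to 0.993). The interval of Rpa2, which coats single-stranded DNA, held 1 (0.944, 0.814 to 1.09). Of the Okazaki fragment and repair enzymes, the ligase Lig1 was lower at 28.9 CPM in the GFP+ library and 34.0 CPM in the GFP- library (0.849, 0.753 to 0.955). Flap endonuclease Fen1 (0.963, 0.806 to 1.15) and exonuclease Exo1 (0.834, 0.582 to 1.17) had intervals that held 1. Ung, the uracil-DNA glycosylase, was the only gene above 1, at 8.76 CPM in the GFP+ library and 7.0 CPM in the GFP- library, and its interval also held 1 (1.25, 0.993 to 1.57). Pcna and Tyms have annotated pseudogene copies, so how reads were divided between copies is uncertain for them. Chaf1b overlaps a gene model on its own strand, and its count is uncertain for the same reason.

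All 4 nucleotide-supply genes had intervals below 1, with a summed ratio of 0.784 (0.753 to 0.815). Rrm1, the large subunit of ribonucleotide reductase, had 43.7 CPM in the GFP+ library and 63.6 CPM in the GFP- library (0.686, 0.624 to 0.754). Its small subunit Rrm2, the one that limits the enzyme in cycling cells, had 70.1 CPM in the GFP+ library and 77.8 CPM in the GFP- library (0.902, 0.835 to 0.973). The 2 subunit genes therefore differed in ratio, and their intervals do not overlap. Tyms, thymidylate synthase, had 36 CPM in the GFP+ library and 51.6 CPM in the GFP- library (0.697, 0.627 to 0.772). Dut, which removes dUTP, had 105 CPM in the GFP+ library and 132 CPM in the GFP- library (0.795, 0.748 to 0.845).

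Of the chromatin factors, Pclaf, a PCNA-binding protein, had 85.5 CPM in the GFP+ library and 114 CPM in the GFP- library (0.749, 0.699 to 0.801). Uhrf1, which couples DNA methylation to replication, had 20.1 CPM in the GFP+ library and 26.6 CPM in the GFP- library (0.757, 0.656 to 0.870). The intervals of the other 3 held 1: the remodeller Hells at 0.977, the histone chaperone subunit Chaf1b at 0.861 and the histone mRNA-binding protein Slbp at 0.944. Dtl, which directs the destruction of CDT1 in S phase, had the lowest ratio of the genes over 5 CPM, at 8.93 CPM in the GFP+ library and 14.9 CPM in the GFP- library (0.598, 0.483 to 0.735). The fork protection genes Tipin (0.852, 0.780 to 0.928) and Clspn (0.822, 0.693 to 0.97) were both lower in the GFP+ library.

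**Figure D1:**
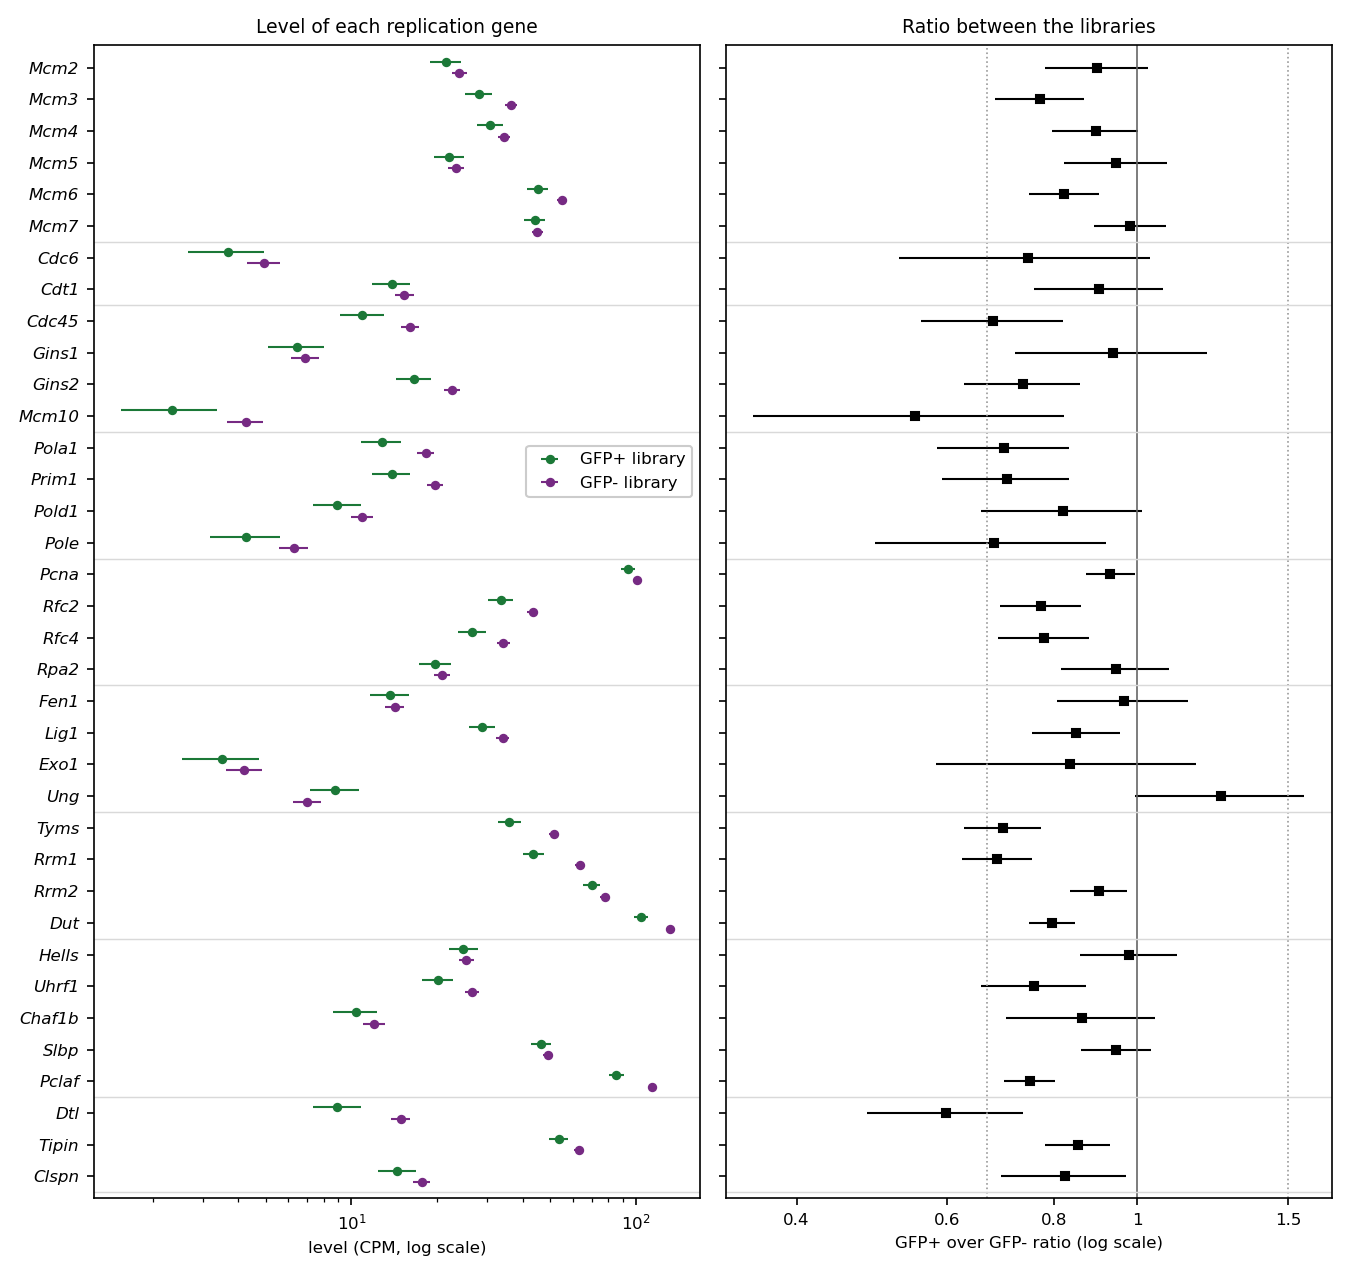
Left, level of each replication gene in the GFP+ and GFP- libraries (CPM, log axis); right, the GFP+ over GFP- ratio (log axis), with 95% counting intervals as bars and dotted lines at 1.5-fold either way. Rows run by role, and 35 of the 36 ratios lie below 1 with only Dtl and Mcm10 past the lower dotted line.

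Of 68 further replication genes (origin recognition subunits, kinases, other polymerase subunits, nucleotide enzymes, chromatin-copying factors and E2F factors), 60 had a mean of at least 5 CPM, and 50 of these had ratios below 1. Their median log2 ratio was -0.21, with 3 at least 1.5-fold lower (5.0%) and 1 at least 1.5-fold higher, where 4.09% and 7.57% of all genes were. Among those lower were the repair gene Brca2 (0.634) and thymidine kinase Tk1 (0.637). The gene past 1.5-fold in the other direction was Ccne2, a cyclin E that acts at the G1 to S transition, with 13.9 CPM in the GFP+ library and 6.17 CPM in the GFP- library (2.26, 1.85 to 2.75).

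At one depth, most barcodes held transcripts of a few replication genes only. For this count, each barcode with at least 5000 UMIs was thinned to 5000, which kept 538 GFP+ and 2493 GFP- barcodes and left out 66 and 190. At this depth 83 of 538 GFP+ barcodes (15.4%, 12.5 to 18.8) and 548 of 2493 GFP- barcodes (22.0%, 20.4 to 23.7) had UMIs of at least 5 of the 36 genes. Without thinning the shares were 53.6% in the GFP+ library and 55.2% in the GFP- library. The median barcode had 2 of the 36 in each library, and 74 GFP+ and 303 GFP- barcodes had none. The bound of 5 genes was not a gap in the data, since 27 GFP+ and 188 GFP- barcodes had exactly 4 genes, and 23 and 100 had exactly 5. Barcodes with at least 5 genes were also deeper before thinning, with medians of 31602 UMIs against 18872 for the rest of the GFP+ library, and 22215.5 against 14159 in the GFP- library.

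Free RNA in the same libraries held these transcripts too. Droplets with 1 to 100 UMIs carried Pcna at 78.0 CPM in the GFP+ library and 113 CPM in the GFP- library, where kept barcodes had 94.1 and 101 CPM. Pclaf stood at 57.2 and 84.7 CPM in these droplets, below its 85.5 and 114 CPM in kept barcodes. Dtl, the gene over 5 CPM past 1.5-fold between the libraries, had 7.15 CPM in GFP+ and 27.0 CPM in GFP- droplets. In kept barcodes it had 8.93 and 14.9 CPM, so in the GFP- library its level was higher in the droplets. How far free RNA shaped the Dtl ratio was not tested. Among macrophage-marked barcodes the share with at least 5 genes was 14.5% in the GFP+ library (10 of 69, median 13996 UMIs) and 10.9% in the GFP- library (5 of 46, median 9250 UMIs). Among mural-marked barcodes it was 11.8% in the GFP+ library (2 of 17) and 25.0% in the GFP- library (41 of 164), and the mural marker list summed to 142 CPM in the GFP+ library and 514 CPM in the GFP- library. Of the 1696 UMIs of the mural list in the GFP+ library, Notch3 gave 1434, Rgs5 21 and Higd1b 0. Whether the 17 mural-marked GFP+ barcodes were mural cells is therefore uncertain. Macrophages and mural cells can divide, so these barcodes are no clean background, and the part of free RNA in the shares was not tested. The difference in share between the libraries was of the same size with non-myogenic-marked barcodes left out, at 15.6% in the GFP+ library and 22.1% in the GFP- library.

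The 36 genes varied in how far they were confined to the same barcodes. Ranking barcodes by the other 35 genes, the top 10% held a median of 52.6% of a gene's thinned UMIs in the GFP+ library and 48.0% in the GFP- library, where the medians over the 3621 genes with at least 100 thinned UMIs in each library were 10.7% and 9.78%. Clspn, the checkpoint mediator claspin, had 65.5% of its UMIs there in the GFP+ library (45.7 to 82.1) and 73.0% in the GFP- library (65.5 to 79.7). Pclaf had 79.6% (71.8 to 86.0) in the GFP+ library and 65.1% (61.9 to 68.2) in the GFP- library, and the helicase gene Mcm3 had 78.2% and 58.1%. At the other end, Rfc2 had 22.1% (13.4 to 33.0) in the GFP+ library and 27.3% (23.3 to 31.7) in the GFP- library, and Slbp had 23.0% and 33.1%. Replication genes such as Rfc2 and Slbp were thus found more evenly over barcodes than Pclaf or Clspn. Only 5 of the 36 genes reached 100 thinned UMIs in both libraries. Outside the list, among the genes that did, those with the highest shares in both libraries, by the lower of the 2, were the histone genes Hist1h2ap (90.0% in the GFP+ library and 81.4% in the GFP- library) and Hist1h2ae (93.7% and 72.8%), then topoisomerase Top2a (74.6% and 56.0%) and the mitotic kinase Cdk1 (66.3% and 52.0%).

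**Figure D2:**
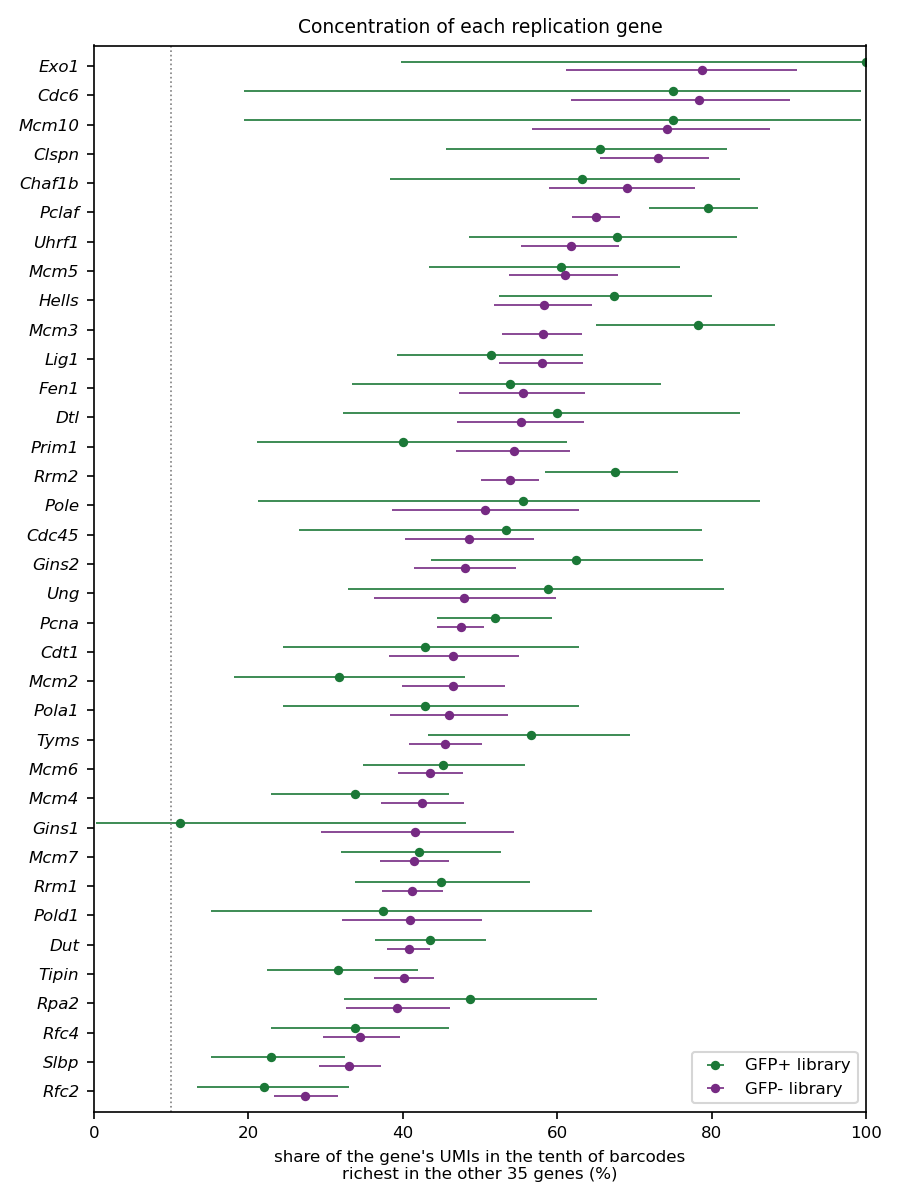
Share of each gene's UMIs, at 5000 UMIs per barcode, that fell in the 10% of barcodes richest in the other 35 genes, by library with exact 95% intervals; the dotted line is at 10%. The lowest share in the GFP+ library is that of Gins1, from 9 UMIs, and all other points lie at 22.1% or more, right of the dotted line.

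Promoter sequence was read for a feature that the list did not use. RefSeq promoter entries on GRCm38.p6 matched 29 of the 36 genes, and the 250 bases before the start were searched on both strands for TTTGGCGC, TTTCGCGC, TTTCCCGC and TTTGCCGC, forms of the word that E2F factors bind. Of the 29 genes, 8 (27.6%) had a match, against 2.16% of 27025 genes and 4.23% of the 7801 with a mean of at least 5 CPM here. With the 50 bases after the start included, 14 of 29 (48.3%) had one, against 2.61% of all genes. A match is a description of letters and not a bound site. The helicase genes Mcm5 and Mcm6 and the degradation factor gene Dtl, which showed the lowest ratio above, are printed, the MCM genes because their matches lie on both strands and overlap and Dtl for its single match at the start, with matched letters in capitals, 5′ to 3′ in the direction of the gene. They are chr8:75109259-75109508 (plus strand), chr1:128359706-128359955 (minus strand) and chr1:191575545-191575794 (minus strand).
Mcm5: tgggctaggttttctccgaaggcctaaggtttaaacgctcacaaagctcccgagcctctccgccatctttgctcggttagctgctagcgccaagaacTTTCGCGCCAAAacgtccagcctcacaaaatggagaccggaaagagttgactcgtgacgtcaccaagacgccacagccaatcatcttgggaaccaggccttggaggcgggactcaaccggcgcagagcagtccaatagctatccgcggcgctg
Mcm6: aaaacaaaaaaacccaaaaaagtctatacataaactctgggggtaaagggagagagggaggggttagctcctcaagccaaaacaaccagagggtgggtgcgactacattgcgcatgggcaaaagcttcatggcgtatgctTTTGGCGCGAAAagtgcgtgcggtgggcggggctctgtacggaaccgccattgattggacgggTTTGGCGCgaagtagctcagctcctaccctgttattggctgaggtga
Dtl: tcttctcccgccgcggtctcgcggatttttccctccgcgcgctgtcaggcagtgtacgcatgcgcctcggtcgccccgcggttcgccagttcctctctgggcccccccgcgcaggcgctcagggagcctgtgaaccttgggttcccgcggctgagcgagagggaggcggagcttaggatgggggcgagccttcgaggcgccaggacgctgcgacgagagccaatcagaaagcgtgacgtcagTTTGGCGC
In Mcm5 and in the first run of Mcm6, 2 words on opposite strands share letters, and the match of Dtl ends at the start of the transcript. The word CCAAT, bound by NF-Y, was in 18 of the 29 (62.1%) and in 37.5% of all genes. Promoters of Mcm3, Pclaf and Pcna held no E2F word in the 250 bases, which says nothing of the factors that act there.

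Replication genes were then set against mitotic genes, which mark barcodes late in the cycle or in division. Barcodes with UMIs of at least 4 of the 20 mitotic genes at 5000 UMIs numbered 50 (9.29% of 538) for GFP+ and 394 (15.8% of 2493) for GFP-. Their summed replication level was 2944 CPM against 511 CPM in the other GFP+ barcodes (5.76-fold, 5.25 to 6.32), and 2879 CPM against 605 CPM in the other GFP- barcodes (4.76-fold, 4.59 to 4.93). These ratios were the lowest of 5 random thinnings, of which the other 4 gave 6.33 to 6.63 in the GFP+ library and 4.87 to 5.22 in the GFP- library, so the counting intervals leave out part of the spread. Of the 33 replication genes over 5 CPM in the GFP+ library, 32 were at least 1.5-fold higher, where 25.8% of all genes were, and 0 were that much lower, where 25.1% of all genes were. In the GFP- library all 36 were higher, against 13.7% of all genes, and 14.2% of all genes were lower. Pclaf differed most of the more abundant genes, at 448 CPM in GFP+ barcodes with mitotic genes and 10.3 CPM in those without (43.7-fold, 28.2 to 70.4), and at 385 and 15.9 CPM in the GFP- library (24.2-fold, 20.4 to 28.8). Rrm2 was 13.8-fold (9.49 to 20.1) higher in the GFP+ library and 8.19-fold (7.01 to 9.57) higher in the GFP- library. Rfc2 was again at the low end, at 1.98-fold (1.0 to 3.64) and 2.23-fold (1.81 to 2.73).

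Many barcodes rich in replication genes had few mitotic genes. Of the barcodes with at least 5 replication genes, 47 of the 83 GFP+ ones and 251 of the 548 GFP- ones had fewer than 4 mitotic genes. Conversely, 14 GFP+ and 97 GFP- barcodes had at least 4 mitotic genes but fewer than 5 replication genes. By number of mitotic genes, the summed level was 429 CPM at 0, 817 CPM at 1 to 3, 3200 CPM at 4 to 9 and 2618 CPM at 10 or more in the GFP+ library. The GFP- library gave 459, 1015, 2948 and 2800 CPM for the same classes. The level at 4 to 9 genes was thus several times that at 1 to 3 in both libraries, while the 4 to 9 over 10 or more ratio was 1.22 (1.05 to 1.42) in the GFP+ library and 1.05 (0.999 to 1.11) in the GFP- library. Genes of the histone clusters were higher in the GFP+ library in each class. They had 152, 212, 2329 and 3073 CPM in the GFP+ library and 106, 202, 936 and 1328 CPM in the GFP- library.

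Single genes behaved differently between those 2 highest classes. In the GFP- library 10 of 36 genes were at least 1.5-fold higher at 4 to 9 than at 10 or more, against 10.2% of all genes, and 2 were at least 1.5-fold lower, against 14.2%. In the GFP+ library 15 of 34 were higher, against 30.3% of all genes, and 4 were lower, against 29.7%, on 28 and 22 barcodes. Cdt1, which is degraded once S phase begins, had 44.6 CPM at 4 to 9 and 15.3 CPM at 10 or more in the GFP- library (2.91, 1.58 to 5.73). Chaf1b had 37.0 and 16.4 CPM (2.26, 1.22 to 4.40), Hells 70.1 and 33.9 CPM (2.07, 1.34 to 3.26), and Mcm2 63.5 and 29.5 CPM (2.15, 1.36 to 3.5). Ung had 19.9 CPM against 1.09 CPM, the second value from 1 UMI (18.2, 2.93 to 753). These licensing, repair and chromatin genes were higher where fewer mitotic genes were seen. Intervals below 1 in the GFP- library belonged to 2 genes: Pclaf had 337 CPM at 4 to 9 and 439 CPM at 10 or more (0.768, 0.664 to 0.888), and Tyms had 105 and 164 CPM (0.642, 0.498 to 0.826).

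Over 5 random thinnings of each library, 8 genes (Mcm3, Mcm6, Cdc6, Cdt1, Ung, Dut, Hells and Uhrf1) were above 1 in all 10 library draws and 0 genes were below 1 in all 10. The GFP- intervals lay above 1 in all 5 draws for Pcna, Ung and Chaf1b, and for 0 genes below 1 in all 5. In the GFP- library the ratio over the 5 draws ranged between 1.45 and 2.91 for Cdt1, 1.51 and 2.15 for Mcm2, 1.34 and 3.05 for Hells, 2.02 and 2.98 for Chaf1b, 0.763 and 0.961 for Pclaf, and 0.642 and 0.994 for Tyms. The values above for Cdt1 and Mcm2 are thus the highest of 5 draws and that for Tyms is the lowest. These draws share the same barcodes and are not independent. How many of all genes kept to one side in this way was not counted, so these numbers are no trait of the replication genes. Some also rest on few UMIs: in the draw reported above, Cdc6 and Ung in the GFP+ library each had 2 UMIs at 4 to 9 mitotic genes and 0 at 10 or more.

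**Figure D3:**
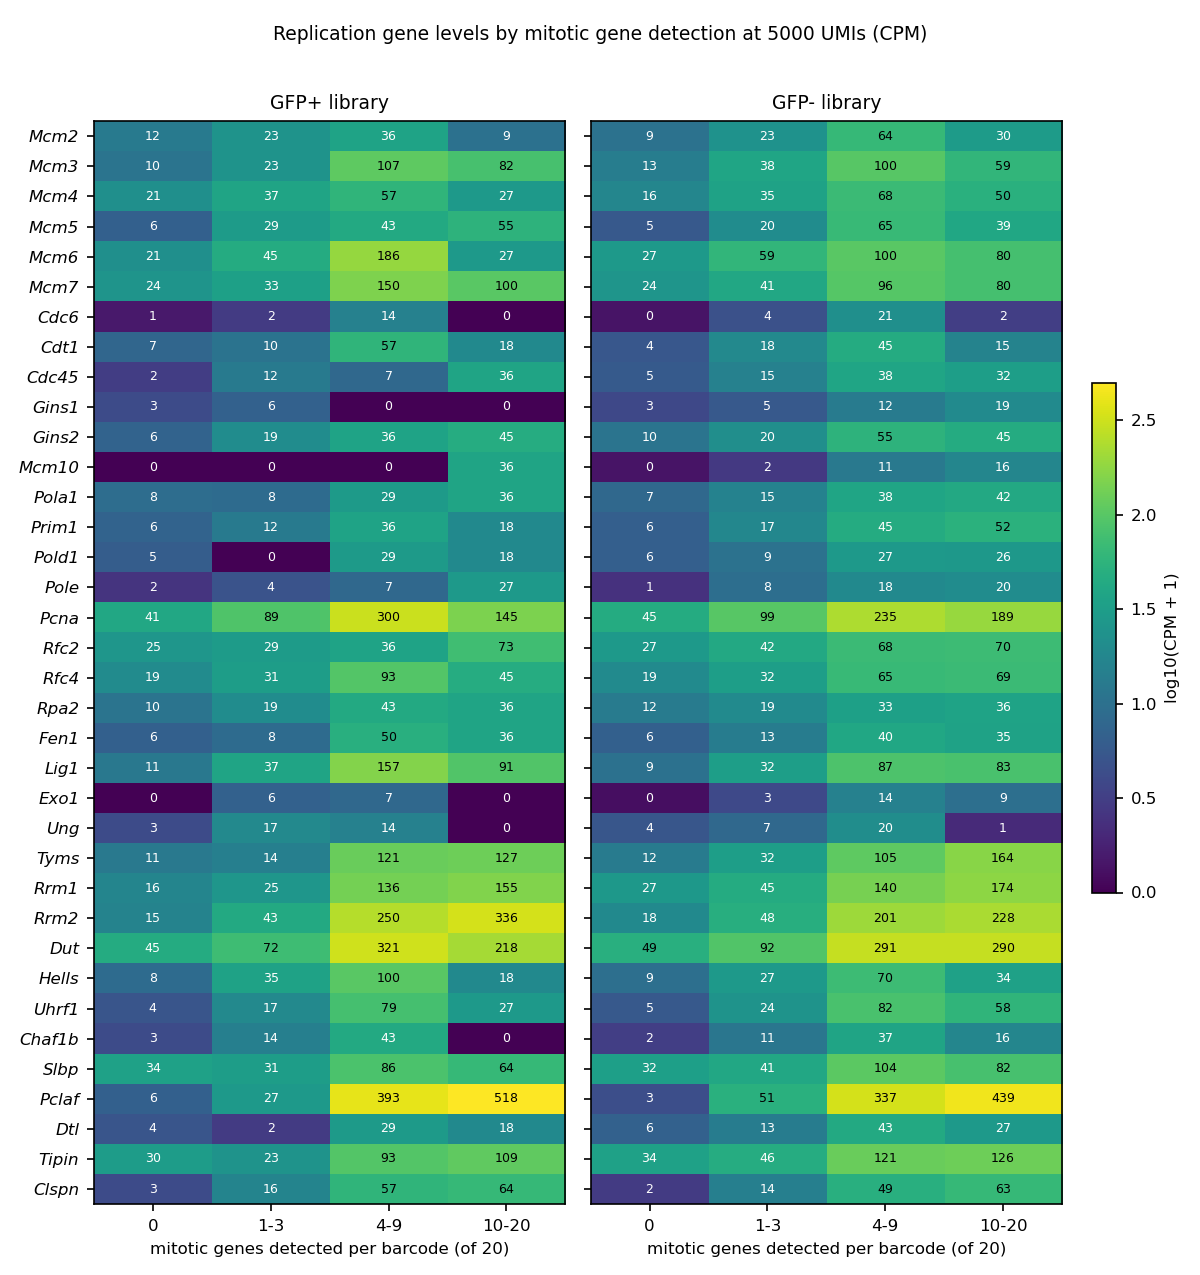
Level of each replication gene (CPM, written in the cells, with the colour on a log10 scale of CPM + 1) by the number of 20 mitotic genes detected per barcode at 5000 UMIs, in the GFP+ and GFP- libraries. Every gene in the GFP- library is higher at 4 to 9 than at 1 to 3 mitotic genes, and Pclaf runs to 439 CPM at 10 or more.

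Barcodes were also divided by detection of Pax7, which marks satellite cells, Myod1, the myoblast factor, and Myog, which accompanies commitment to differentiate. With all UMIs, the summed level was 1329 CPM with Myod1 detected against 818 CPM without in the GFP+ library (1.62, 1.57 to 1.68), and 1540 against 1029 CPM in the GFP- library (1.5, 1.47 to 1.52). At least 1.5-fold higher with Myod1 were 20 of 32 genes in the GFP+ library, against 11.0% of all genes, and 16 of 34 in the GFP- library, against 5.42%. None was that much lower in either library, against 16.9% and 9.32% of all genes. Mcm2 had 33.7 CPM with Myod1 and 12.5 CPM without in GFP+ barcodes (2.68, 2.06 to 3.52), and 32.0 against 17.7 CPM in GFP- barcodes (1.80, 1.59 to 2.04). Rrm2 had 99.4 against 48.8 CPM (2.04, 1.77 to 2.35) in the GFP+ library and 104 against 57.4 CPM (1.81, 1.69 to 1.94) in the GFP- library. Barcodes with Myod1 were deeper, at medians of 23825 against 15856 UMIs in the GFP+ library and 17719.5 against 13208 in the GFP- library, and detection rises with depth. At 5000 UMIs the ratios were 1.63 (1.48 to 1.79) in the GFP+ library and 1.24 (1.19 to 1.29) in the GFP- library. At that depth 19 of 32 genes were at least 1.5-fold higher in the GFP+ library, against 16.2% of all genes, and 6 of 33 in the GFP- library, against 6.35%, and 0 were that much lower, against 18.2% and 12.2%. With all UMIs, 22.7% of GFP+ barcodes without Myod1 were marked for a non-myogenic list, against 2.01% of those with it.

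With Pax7 the sum was lower than without it at both depths in the GFP+ library, while the direction turned with depth in the GFP- library. With all UMIs, the summed level was 1011 CPM with Pax7 against 1087 CPM without in the GFP+ library (0.93, 0.895 to 0.966) and 1280 against 1178 CPM in the GFP- library (1.09, 1.07 to 1.11). Past 1.5-fold stood 1 of 32 genes higher and 1 lower in the GFP+ library, against 18.3% and 17.3% of all genes, and 0 of 33 either way in the GFP- library, against 6.51% and 9.25%. At 5000 UMIs the summed level was 558 against 914 CPM in the GFP+ library (0.611, 0.557 to 0.669) and 821 against 1092 CPM in the GFP- library (0.752, 0.725 to 0.780), lower with Pax7 in both. Of the genes over 5 CPM at that depth, 18 of 31 in the GFP+ library were at least 1.5-fold lower with Pax7, against 20.1% of all genes, and 6 of 33 in the GFP- library, against 8.65%. None was at least 1.5-fold higher, against 16.0% and 4.56% of all genes. Pclaf had 23.2 CPM with Pax7 against 78.2 CPM without in GFP+ barcodes (0.297, 0.192 to 0.447), and 54.5 against 91.7 CPM in GFP- barcodes (0.594, 0.517 to 0.682). Mcm2 had 4.49 against 25.8 CPM in GFP+ barcodes (0.174, 0.0598 to 0.418) and 12.8 against 23.5 CPM in GFP- barcodes (0.546, 0.409 to 0.724). Slbp, by contrast, had 41.2 against 33.2 CPM (1.24, 0.821 to 1.88) in the GFP+ library and 42.4 against 45.2 CPM (0.936, 0.788 to 1.11) in the GFP- library, and both intervals held 1. Of the Pax7-negative barcodes at this depth, 30.3% were marked for a non-myogenic list in the GFP+ library and 14.1% in the GFP- library, against 2.62% and 3.93% of the Pax7-positive ones, and the part of these cells was not tested at this depth.

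Combining the 3 markers at 5000 UMIs, barcodes with Myod1 alone had the highest summed level in both libraries, at 1623 CPM (1411 to 1857, 26 barcodes) in the GFP+ library and 1766 CPM (1666 to 1871, 131 barcodes) in the GFP- library. At least 5 replication genes were detected in 46.2% of these GFP+ barcodes (26.6 to 66.6) and 50.4% of these GFP- barcodes (41.5 to 59.2). Over the 5 thinnings this state was highest in 4 of them in the GFP+ library and in all 5 in the GFP- library. With all UMIs the order was another in the GFP+ library, where the 8 barcodes with Myod1 alone had 1068 CPM and the 36 with all 3 markers had the most, 1987 CPM, while Myod1 alone stayed highest in the GFP- library at 2220 CPM. At 5000 UMIs, barcodes with Pax7 alone were lower, at 564 CPM in the GFP+ library (213 barcodes) and 764 CPM in the GFP- library (941 barcodes).

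The lower sum of the GFP+ library was not seen in every marker state. With all UMIs the GFP+ over GFP- ratio was above 1 in 3 of the 8 states, at 1.21 (1.15 to 1.27) with all 3 markers, 1.28 (1.22 to 1.34) with Myod1 and Myog, and 2.19 (1.99 to 2.41) with Myog alone. The state with Myog alone rested on 15 GFP+ and 101 GFP- barcodes, of which 33.3% and 12.9% were marked for a non-myogenic list. The other 5 states ran between 0.481 and 0.824. Among them, barcodes with none of the markers were marked for such a list in 82.6% of the GFP+ and 49.5% of the GFP- cases. At 5000 UMIs, in the first of the 5 thinnings, only the state with Myod1 and Myog was above 1. It had 1204 CPM in 47 GFP+ barcodes and 808 CPM in 259 GFP- barcodes (1.49, 1.30 to 1.7). With Myog alone the ratio was then 0.447 (0.337 to 0.583), and with all 3 markers it was 0.478 (0.226 to 0.898) on 4 GFP+ and 40 GFP- barcodes. Over the 5 thinnings, Myog alone gave 381 to 696 CPM in the GFP+ library and 607 to 941 CPM in the GFP- library. All 3 markers gave 200 to 1257 CPM in the GFP+ library and 839 to 1449 CPM in the GFP- library. The ranges of the libraries thus overlapped in both states, and the direction there depended on the thinning. It also did with Pax7 and Myog, at 286 to 1200 CPM in the GFP+ library and 680 to 926 CPM in the GFP- library. With Myod1 alone, where it did so too, the levels were 1256 to 2077 CPM in the GFP+ library and 1733 to 1921 CPM in the GFP- library. States with few GFP+ barcodes rest on these alone, and the part of depth in the states was not tested.

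**Figure D4:**
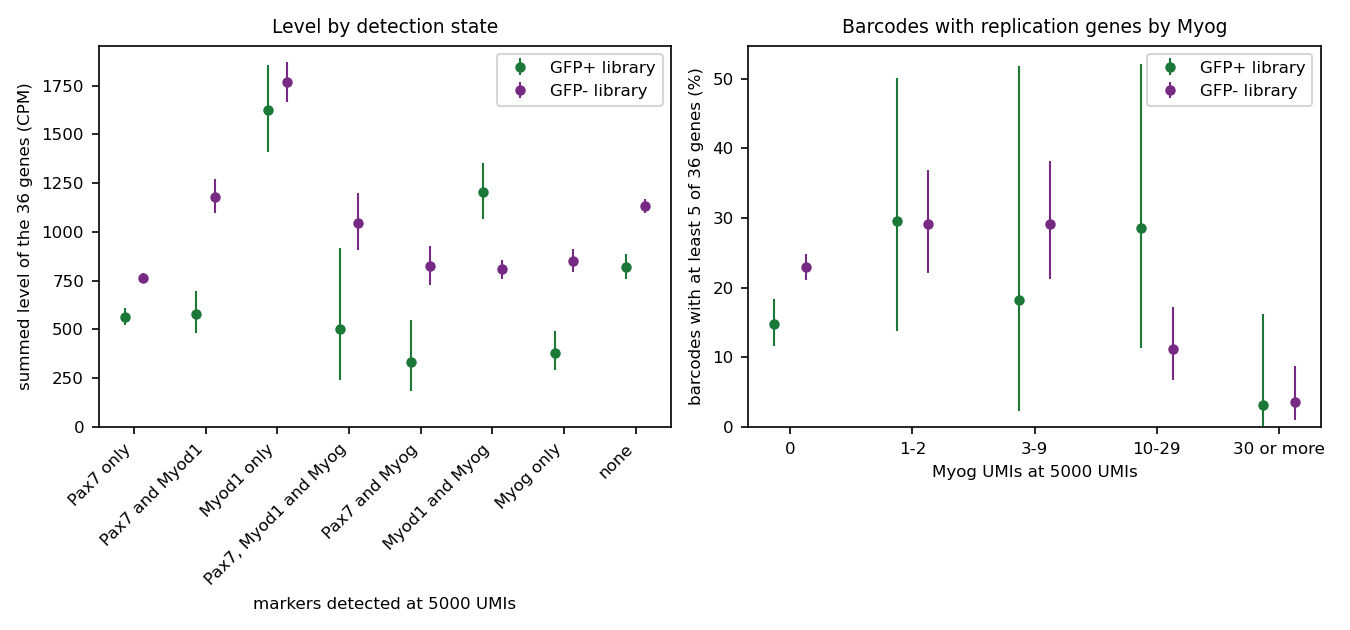
Left, summed level of the 36 replication genes at 5000 UMIs by which of Pax7, Myod1 and Myog were detected, in the GFP+ and GFP- libraries; right, share of barcodes with at least 5 of the 36 genes by number of Myog UMIs. Bars are 95% counting intervals, Myod1 alone is highest in both libraries, and barcodes with 30 or more Myog UMIs show shares of 3.13% and 3.51%.

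With Myog the outcome differed between libraries and by amount. With all UMIs the summed level was 1454 CPM with Myog against 845 CPM without in the GFP+ library (1.72, 1.66 to 1.78), and 1222 against 1265 CPM in the GFP- library (0.966, 0.949 to 0.983). At least 1.5-fold higher with Myog were 18 of 32 genes in the GFP+ library, against 13.1% of all genes, and 0 of 34 in the GFP- library, against 6.08%. None was at least 1.5-fold lower in either, against 20.4% and 12.3%. At 5000 UMIs the sums gave 1.12 (0.993 to 1.25) in the GFP+ library and 0.842 (0.804 to 0.881) in the GFP- library. Over 5 thinnings these ratios ranged between 1.04 and 1.38 in the GFP+ library and between 0.806 and 0.883 in the GFP- library. Past 1.5-fold at that depth stood 6 of 30 genes higher and 5 lower in the GFP+ library, against 20.1% and 28.4% of all genes, and 0 of 33 higher and 2 lower in the GFP- library, against 9.37% and 19.5%. Mcm3 had 37.4 CPM with Myog against 17.0 CPM without in GFP+ barcodes (2.20, 1.16 to 3.99), and 22.8 against 30.9 CPM in GFP- barcodes (0.738, 0.554 to 0.972). Mcm2 was higher with Myog in both libraries, by 5.69-fold (2.94 to 11.1) and 1.48-fold (1.10 to 1.97).

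Detection of a single Myog UMI covered unlike barcodes, which the number of Myog UMIs at 5000 divided. Barcodes with 30 or more Myog UMIs had 306 CPM of replication transcripts in the GFP+ library (227 to 405, 32 barcodes) and 314 CPM in the GFP- library (270 to 364, 114 barcodes), where those with 0 Myog UMIs had 723 CPM (688 to 759) and 1000 CPM (980 to 1020). At least 5 replication genes were seen in 1 of these 32 GFP+ barcodes (3.13%, 0.0791 to 16.2) and 4 of these 114 GFP- barcodes (3.51%, 0.964 to 8.74). The shares without Myog were 14.8% and 22.9%. In the GFP- library the level was 1341 CPM at 1 to 2 Myog UMIs, 1032 CPM at 3 to 9, 582 CPM at 10 to 29 and 314 CPM at 30 or more. Over 5 thinnings of that library, 1 to 2 Myog UMIs gave 1208 to 1354 CPM and 3 to 9 gave 1032 to 1385 CPM. The order of these 2 classes was thus not settled. The GFP+ library held 11 to 32 barcodes in the classes above 2 UMIs, and its levels there, 1400, 1229 and 306 CPM, were less settled: over 5 thinnings the class of 3 to 9 ranged between 400 and 2600 CPM. In the GFP- library Pclaf had 3.51 CPM at 30 or more Myog UMIs (2 UMIs) and 78.0 CPM at 0. Pcna had 29.8 CPM at 30 or more and 88.0 CPM at 0, Dut 35.1 and 101 CPM, and Rrm2 24.6 and 56.2 CPM. All 4 were lower at 30 or more Myog UMIs than at 0, and they are the 4 genes of the list with the most UMIs in that library. Of all 36, 31 were lower in the GFP+ library and 34 in the GFP- library, with 15 and 9 genes at 0 UMIs in the class of 30 or more. Of those over 5 CPM, 22 of 27 were lower in the GFP+ library, against 55.3% of all genes, and 28 of 30 in the GFP- library, against 56.7%. Mcm2 was higher, at 56.3 CPM (9 UMIs) at 30 or more against 8.5 CPM at 0 in the GFP+ library, and 19.3 CPM (11 UMIs) against 16.7 CPM in the GFP- library. The classes of Myog UMIs were chosen after the data were seen.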

How the data were processed

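The authors deposited unnormalized UMI counts, 1 matrix per library with empty droplets included, which Cell Ranger version 4 wrote per the file headers. Cell Ranger, Seurat and mm10 appear in the submitters' processing notes, and the gene annotation is one the sources used here do not give. Free RNA and the assignment of reads that match more than 1 gene had already shaped the counts as deposited.

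The barcode filter was 1000 UMIs, 500 genes and 10% mitochondrial UMIs. No doublet caller was run, and leaving out the 5% of barcodes with the most UMIs in each library stands in for one. UMIs were summed over barcodes and scaled to CPM. Ratios have exact conditional intervals, shares exact binomial (Clopper-Pearson) intervals and levels exact Poisson intervals, all at 95% and for counting error only. Since each fraction has 1 library, a fold of 1.5 among genes with a mean of at least 5 CPM took the place of a test. Barcodes were thinned at random to 5000 UMIs for every comparison by detection at one depth. All 36 members are named, and of the other 68 replication genes those past 1.5-fold, except for 1 that is not reported here. The members, the lists and the rules were chosen with earlier results of these data known. Alternatives covered barcode filters, marked barcodes, thinning, scaling, the level filter, detection thresholds and the make-up of states. The calculations were tested on simulated counts with known ratios and depths. Python 3.11, numpy 2.4, scipy 1.17 and pandas 2.3 were used.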

Additional observations from a re-analysis of the deposited data

Results flagged for a closer look

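For 3 genes the ratio of barcodes with Myog to those without lay above 1 in the GFP+ library and below 1 in the GFP- library, each with its counting interval on that side. Gins2 was at 1.64 in the GFP+ library and 0.767 in the GFP- library, Rrm1 at 1.76 and 0.895, and Uhrf1 at 1.67 and 0.873. Mcm3 did so at 5000 UMIs, at 2.20 in the GFP+ library and 0.738 in the GFP- library. The sum of the 36 genes lay at 1.72 in the GFP+ library and 0.966 in the GFP- library with all UMIs. By Pax7 detection the libraries lay on opposite sides the other way round, for Mcm3 at 0.709 in the GFP+ library and 1.21 in the GFP- library, for Pclaf at 0.853 and 1.07, and for the summed genes at 0.93 and 1.09. At 5000 UMIs the summed Pax7 ratios lay below 1 in both libraries. None of these differences between the libraries was tested, since each fraction has 1 library. How many of all genes lay on opposite sides in this way was not counted, so the number of such genes is no trait of the 36.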

How the results depend on the processing

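No paired analysis was possible because each fraction has 1 library. The summed GFP+ over GFP- ratio stayed below 1 over all barcodes in every alternative run, though not in every marker state: it was 0.719 without the 5% of barcodes with the most UMIs, 0.713 at up to 5% mitochondrial UMIs, 0.764 at 5000 UMIs, 0.765 as a mean over barcodes and 0.887 with the median gene ratio set to 1. Genes at least 1.5-fold lower, 1 in the report, numbered 10 of 32, 11 of 33, 8 of 31 and 6 of 33 under the first 4 of these. The shares of all genes there were 5.04%, 5.23%, 8.91% and 7.79%. Without marked barcodes it was 2 of 33 (2.87% of all genes), and without barcodes carrying Erfe and Chrdl2 2 of 33 (3.96%). With no level filter it was 2 of 36, below the 13.7% of all genes, and at a mean of 20 CPM 0 of 20 (2.18%). With the median ratio set to 1, 28 of 36 genes were below 1.

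By Pax7 detection the GFP- ratio of 1.09 reversed to 0.752 at 5000 UMIs and to 0.901 with detection at 3 UMIs, and was 1.11 at up to 5% mitochondrial UMIs. The GFP+ ratio was 0.854 without marked barcodes, 0.888 without the 5% deepest, 0.611 at 5000 UMIs and 0.688 at 3 UMIs. By Myod1 the GFP+ ratio was 1.80 without marked barcodes, 1.47 without the 5% deepest, 1.69 without Erfe and Chrdl2 barcodes and 2.05 at 3 UMIs, and the GFP- ratio was 1.41, 1.42 (up to 5% mitochondrial), 1.24 (5000 UMIs) and 1.54 (3 UMIs) where it moved. By Myog the GFP+ ratio was 1.44 without the 5% deepest, 1.80 without Erfe and Chrdl2 barcodes, 1.12 at 5000 UMIs and 1.48 at 3 UMIs, and the GFP- ratio 0.894, 0.947 (up to 5% mitochondrial), 0.842 and 0.838.

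The share with at least 5 genes was 12.4% in the GFP+ and 19.3% in the GFP- library without the 5% deepest, 26.5% (GFP-) at up to 5% mitochondrial UMIs, and 53.6% and 55.2% unthinned. At a bound of 3 genes it was 32.2% and 43.0%, and at 8 genes 7.81% and 12.8%. The mitotic ratio in the GFP- library was 4.96 without marked barcodes, 4.34 at up to 5% mitochondrial UMIs, 5.12 at 2 mitotic genes and 4.50 at 6. Chosen after the data were seen were other thinning draws, which gave mitotic ratios of 6.63, 6.37, 6.57 and 6.33 in the GFP+ library and 5.03 and 5.22 in the GFP- library, the weighting of GFP+ barcodes to the detection states of the GFP- library (a summed ratio of 0.840), the Myog classes and the promoter window of 300 bases. The causes of these shifts were not tested.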
